A study of Mus musculus with 4 samples.

Results

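The genes described here encode small leucine-rich proteoglycans and matricellular proteins, secreted components of the extracellular matrix. They were decorin (Dcn), biglycan (Bgn), lumican (Lum), fibromodulin (Fmod), periostin (Postn), Sparc, tenascin-C (Tnc), the thrombospondins Thbs1 and Thbs2, and osteopontin (Spp1). Every probe set of the array annotated with one of these symbols and no other was taken. This gave 23 probe sets, of 45037 tested, for 9 of the 10 genes. No probe set was annotated with the symbol Spp1 in the annotation used here, so no value is given for that gene. Where a gene had several probe sets, the one with the highest mean over all arrays leads the account, and the others are described beside it.

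RNA came from immortalised mammary epithelial cells of a Deaf-1-null mouse. Deaf-1 is a transcription factor, and every sample came from cells labelled as null for the endogenous gene. The cells had been immortalised with a retrovirus carrying the E6 and E7 proteins of human papilloma virus, and 2 clones, C1 and E1, were taken forward. Each clone received either a Deaf-1 retrovirus (Deaf-1 group) or an empty retrovirus (control group), and the time-point used followed 48 hours of puromycin selection. The data were 4 Affymetrix mouse expression arrays, 1 for each clone with each retrovirus. Each group therefore held 2 arrays, the clones served as its replicates, and each clone is a single line. The sources give no repeat culture of a clone, so p-values measure the spread between these 4 arrays only.

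Small leucine-rich proteoglycans have a core of leucine-rich repeats, and most carry glycosaminoglycan chains. Decorin, biglycan, lumican and fibromodulin bind collagen fibrils and shape their assembly and spacing, and decorin and biglycan also bind growth factors such as TGF-beta. Matricellular proteins lie in the matrix without being chief structural parts of it, and they act on cells through integrins and other receptors. In the mammary gland both families are known mainly from the stroma around the ducts, and tenascin-C and periostin are known for their abundance in the stroma of tumours and wounds.

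Deaf-1 is known to bind DNA with TTCG at the core of its site. The 250 bases before each annotated transcription start were therefore searched for TTCG on both strands. Start sequences were present for 7 of the 10 genes, with 10 starts in all, and 3 of these starts held the tetranucleotide. Across all 32851 starts in the RefSeq table, 38.7% held it. The starts below are shown because Postn and Thbs2 were measured and these windows contain the match. Postn has a further annotated start, the window of which holds neither TTCG nor CGAA. Both printed windows are RefSeq sequences of mouse build GRCm38.p6, and capitals mark TTCG or its reverse complement CGAA. In Thbs2 both overlap as TTCGAA. A start with the motif on both strands made up 7.42% of all starts, and a match in a window of this length describes letters only.
Postn, chr3:54360857-54361106, plus strand, TTCG from position -227 relative to the start: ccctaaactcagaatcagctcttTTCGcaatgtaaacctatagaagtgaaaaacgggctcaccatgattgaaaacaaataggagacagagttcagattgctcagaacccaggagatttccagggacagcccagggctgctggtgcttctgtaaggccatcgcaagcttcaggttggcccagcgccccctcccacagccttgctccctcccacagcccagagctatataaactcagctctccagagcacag
Thbs2, chr17:14694263-14694512, minus strand, TTCGAA from position -210 relative to the start: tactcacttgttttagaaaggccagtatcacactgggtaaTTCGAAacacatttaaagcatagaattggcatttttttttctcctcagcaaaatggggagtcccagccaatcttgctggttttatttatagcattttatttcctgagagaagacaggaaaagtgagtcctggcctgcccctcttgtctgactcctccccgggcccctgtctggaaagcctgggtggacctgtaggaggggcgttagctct

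The Deaf1 probe set was higher on the Deaf-1 array of each clone. In C1 it read 5.01 with the control retrovirus and 6.73 with Deaf-1, and in E1 it read 4.91 and 6.25 (log2 RMA values, as are all levels given here). Both control arrays, though labelled Deaf-1-null, thus read above the background level of 3.77. RMA corrects background, brings arrays to one distribution and summarises each probe set. Arrays of the same clone correlated across probe sets at 0.992 to 0.994, and arrays of different clones at 0.976 to 0.983. That level is the 95th percentile of 44 olfactory receptor probe sets. The share of probe sets past this level was 49.97% to 51.8% per array.

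The epithelial label was compared with marker genes. Of 8 luminal markers, 3 lay above background on all 4 arrays and 3 on none. Those above it were Epcam (5.81 to 6.33 at its leading probe set), the tight junction gene Cldn3 (5.19 to 5.88) and keratin 19 (Krt19, 4.37 to 4.64). The other Epcam probe set read 3.35 to 3.85, around background. The other Cldn3 probe sets read 3.38 to 4.24, also around it. E-cadherin (Cdh1) read 2.22 to 2.42 and keratin 18 (Krt18) 2.75 to 3.51, both below background everywhere, and keratin 8 (Krt8) read 3.46 to 4.01. Of 7 basal or myoepithelial markers, 3 lay above background on all arrays. Keratin 5 (Krt5) read 4.45 to 4.74 and smooth muscle actin (Acta2) 11.46 to 11.83, whereas keratin 14, keratin 17 and Myh11 were below background on all 4 arrays. All 10 markers of fibroblasts were above background on all 4 arrays, among them Col3a1 at 13.38 to 13.63, Pdgfra at 10.88 to 11.25 and vimentin (Vim) at 12.13 to 12.82. The luminal markers were thus mixed, with Cdh1 and Krt18 below background and Epcam, Cldn3 and Krt19 above it at their leading probe sets. The fibroblast markers were all above it, and the samples are called clones C1 and E1 here.

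**Figure D1:**
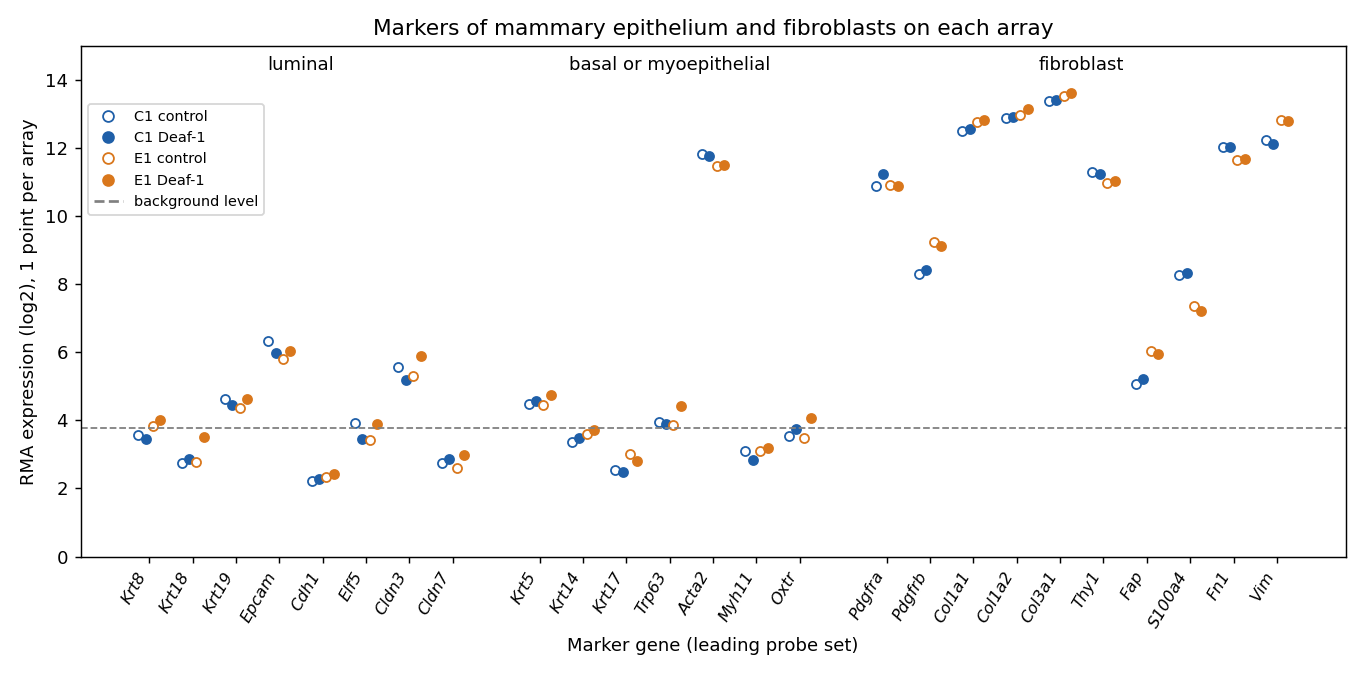
Log2 RMA levels of luminal, basal or myoepithelial and fibroblast markers (1 leading probe set per gene), with 1 point per array coloured by clone and filled for Deaf-1; the dashed line is the background level of 3.77. All 10 fibroblast markers sit above the line on every array, while 3 of 8 luminal and 3 of 7 basal markers sit below it on every array.

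Of the 23 probe sets, 15 lay above background on all 4 arrays and 3 on none. Among the 9 leading probe sets, 8 were above it on all 4 arrays, and the exception was lumican.

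The small proteoglycans fell into genes with near-equal levels and genes that separated the clones. Decorin (probe set 1449368_at) read 10.90 with control and 10.89 with Deaf-1 in C1, and 10.67 with each retrovirus in E1. Biglycan (1416405_at) read 12.36 and 12.15 in C1, and 12.40 and 12.59 in E1. For both genes the arrays of one clone lay beyond those of the other, but by small steps. Lumican (1423607_at), which binds fibrillar collagens as decorin does, had the widest spread of the 9 genes. It read 6.52 and 6.94 in C1 with control and Deaf-1, and 4.26 and 3.57 in E1. Its C1 arrays were well above background, the E1 control array was slightly above it and the E1 Deaf-1 array below it. Fibromodulin (1415939_at), a close relative of lumican, read 4.19 and 3.87 in C1 and 4.95 and 4.84 in E1, above background on all 4 arrays but close to it in C1.

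Among the matricellular genes, periostin (1423606_at), a secreted protein that binds integrins and collagen, read 11.68 with control and 11.76 with Deaf-1 in C1, and 12.66 and 12.74 in E1. Sparc (1416589_at), a collagen-binding glycoprotein, read 12.95 and 12.86 in C1 and 12.75 and 12.78 in E1. Periostin thus split cleanly by clone, whereas the 4 Sparc values stayed within a narrow band. Tenascin-C (1416342_at), a large hexameric glycoprotein, read 6.18 and 5.97 in C1 and 6.77 and 6.62 in E1. Both thrombospondins, inhibitors of angiogenesis that bind CD36 and CD47, were higher in E1. Thbs1 (1460302_at) read 8.91 and 9.03 in C1 and 9.76 and 9.85 in E1, and Thbs2 (1422571_at) read 10.43 and 10.27 in C1 and 11.00 and 11.18 in E1. For tenascin-C and both thrombospondins, each E1 array lay above each C1 array.

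**Figure D2:**
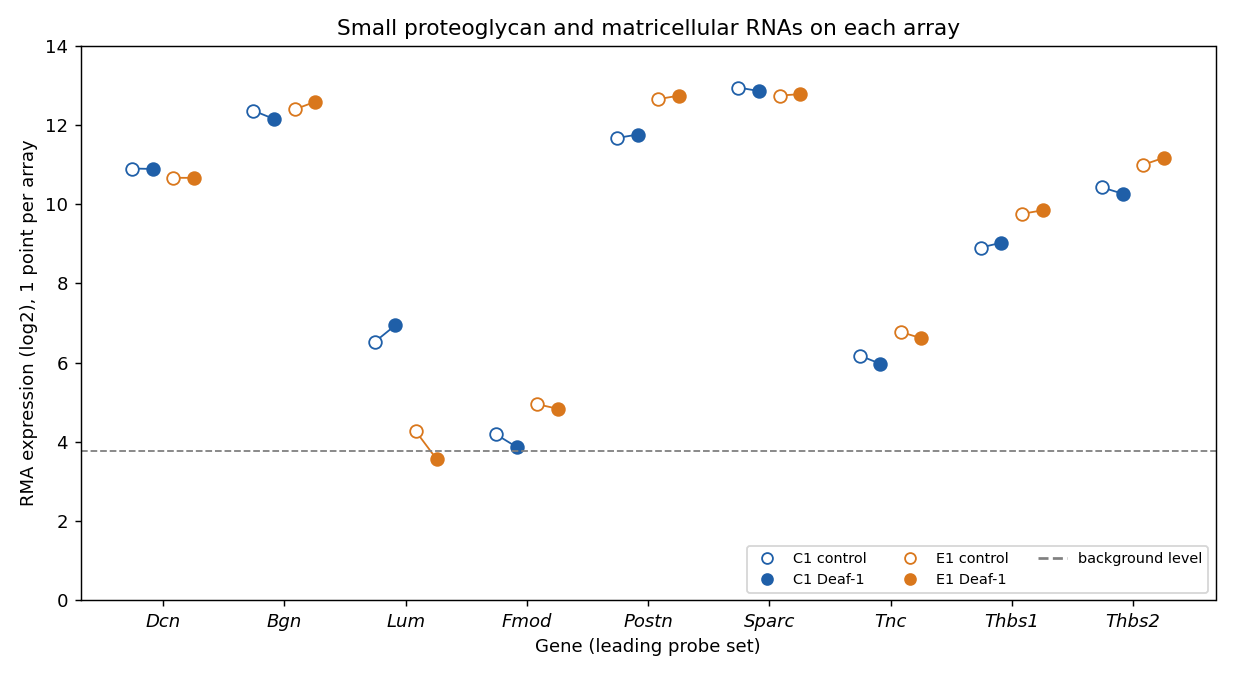
Log2 RMA level of the leading probe set of each gene, with 1 point per array; colour gives the clone, a filled point the Deaf-1 retrovirus, and a line joins the arrays of 1 clone. Lum falls from between 6.52 and 6.94 in C1 to between 3.57 and 4.26 in E1, and Postn, Fmod, Tnc, Thbs1 and Thbs2 are higher in both E1 arrays.

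The first comparison asked which genes respond to Deaf-1 in cells that lack it. None of the 23 probe sets changed with Deaf-1 at an unadjusted limma p under 0.01, the threshold of the study. This threshold was passed by 0.0111% of all probe sets, 5 in number. None of the 23 passed an unadjusted p under 0.05 either, and the smallest p among them was 0.303. With the clone as a replicate block the count was again 0, against 0.0244% of all probe sets, and the smallest unadjusted p from limma was 0.106. The Deaf-1 and control arrays did not overlap for 18.9% of all probe sets, and for none of these 23. Both groups hold an array of each clone, so where the clones' arrays do not overlap, those of the groups must. That was so for 18 of the 23, including all 9 leading probe sets, and for these the overlap cannot bear on Deaf-1.

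The leading probe sets moved little on average. The mean Deaf-1 minus control difference ran from -0.22 (Fmod) to 0.11 (Thbs1) on the log2 scale over the 9 genes, with a median size of 0.086. The median size over the leading probe sets of all genes was 0.092, and over all probe sets 0.096. For periostin, with 1 of its 2 annotated starts printed above, the mean difference was 0.09, with a 95% interval of -1.19 to 1.36, and for Thbs2 it was 0.01, with an interval of -1.003 to 1.021. With the clone as a block the periostin interval narrowed to between -0.30 and 0.47, and that of Thbs2 to between -0.44 and 0.46. For decorin the difference was -0.01 (interval -0.47 to 0.46) and for Sparc -0.02 (interval -0.44 to 0.39). The widest interval was that of lumican, -3.72 to 3.44 without the block and -0.97 to 0.70 with it.

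Within the clones the signs were often unlike. Lumican was 0.42 higher with Deaf-1 in C1 and 0.70 lower in E1, a contrast between single arrays. Biglycan was 0.21 lower in C1 and 0.19 higher in E1. Fibromodulin and tenascin-C were lower with Deaf-1 in both clones (Fmod -0.32 and -0.12, Tnc -0.21 and -0.16 in C1 and E1), and periostin and Thbs1 were higher in both (Postn 0.09 in each clone, Thbs1 0.12 and 0.09). Over the 23 probe sets, 15 had opposite signs in the clones. Opposite signs were also found for 58.9% of all probe sets. The largest single step belonged to a further fibromodulin probe set (1437685_x_at), which was 1.05 higher with Deaf-1 in E1 and 0.08 higher in C1.

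**Figure D3:**
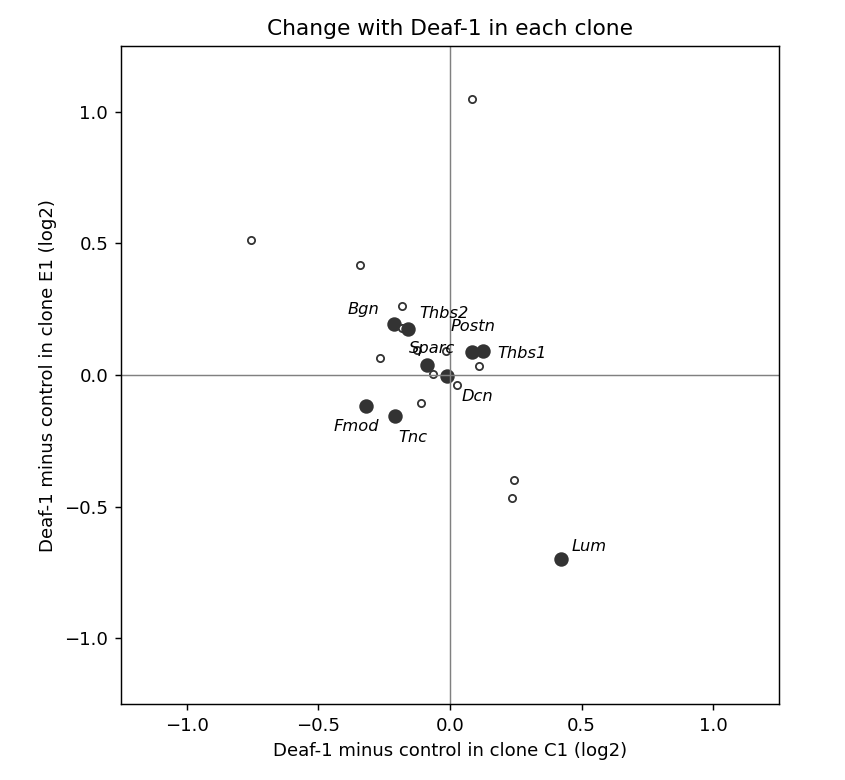
Log2 difference between the Deaf-1 and control arrays in clone C1 (horizontal) and clone E1 (vertical), with large points for the 9 leading probe sets and small open points for the other 14. Points in the upper left and lower right moved in opposite directions in the clones, as 15 of 23 did; Lum (0.42 and -0.70) lies farthest out among the leading probe sets.

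Clones C1 and E1 were taken as replicates in the study, and the second comparison asked how far these genes differed between them. Lumican was lower in E1, whereas periostin, fibromodulin and both thrombospondins were higher there, each at an unadjusted limma p under 0.01. After Benjamini-Hochberg adjustment over all probe sets none of the 23 reached an adjusted limma p under 0.05, a threshold passed by 0.109% of probe sets. At an unadjusted p under 0.01, 6 of the 23 were higher in E1, against 2.55% of all probe sets, and 1 was lower, against 2.83%. These 6 included all 3 probe sets of Thbs2, and probe sets of the same gene are not independent. By leading probe sets, 4 of the 9 genes were higher and 1 lower, against 634 and 631 of all 18193 genes. At an unadjusted p under 0.05 the count was 12 of 23, against 14.4% of all. Leaving out 1 array, with the retrovirus also dropped from the model, gave lumican differences of -3.17 to -2.47 (log2). Those of periostin ran from 0.94 to 1.03. The clones' arrays did not overlap for any of the 9 leading probe sets, nor for 9427 of the leading probe sets of all 18193 genes. Over every probe set they did not overlap for 18 of the 23, against 47.1% of all.

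Lumican differed most. It was 2.82 lower in E1 on the log2 scale (SE 0.31, 95% interval -3.65 to -1.98), which is 7.05-fold in favour of C1, with an unadjusted limma p of 0.000617 and an adjusted p of 0.0865. The difference was -2.26 between the control arrays and -3.38 between the Deaf-1 arrays. Only 1 of the 2 E1 arrays was above background, so the E1 mean is in part a background reading. Among all probe sets, 99.9% had a smaller difference between clones. Decorin, its neighbour on the chromosome, was 0.23 lower in E1 (interval -0.62 to 0.16, adjusted limma p 0.581).

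Periostin was 0.98 higher in E1 (SE 0.14, interval 0.59 to 1.37), a fold of 1.98, with an unadjusted limma p of 0.00191 and an adjusted p of 0.118. The difference was larger than that of 97.2% of all probe sets. Fibromodulin was 1.82-fold higher in E1 (adjusted limma p 0.141). Thbs1 was 1.78-fold higher (adjusted limma p 0.138) and Thbs2 1.67-fold (adjusted limma p 0.183). Tenascin-C was 0.62 higher, with an unadjusted limma p of 0.0111, just outside the limit of 0.01, and Thbs2 with a p of 0.00952 just inside it. Biglycan differed by 0.23 (interval -0.24 to 0.71) and Sparc by -0.14 (interval -0.54 to 0.26), and neither passed.

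These calls depend on how the retrovirus was treated in the fit. When the retrovirus was left out of the model, 7 of the 23 were higher in E1 at an adjusted limma p under 0.05, against 2.48% of all probe sets, and 1 was lower, against 2.64%. These 8 were lumican (adjusted p 0.00815), periostin (adjusted p 0.0172), Thbs1 (adjusted p 0.0263), all 3 probe sets of Thbs2 and 2 of fibromodulin. In RNA from whole cultures, fewer cells of a type and less RNA per cell cannot be told apart. Fibroblast markers summed over the list read 15.22 and 15.24 in C1 and 15.36 and 15.43 in E1 (control and Deaf-1 array in turn). Sums were taken on the linear scale, so the most abundant markers weigh most. Single fibroblast markers differed in both directions at an unadjusted limma p under 0.01: Fap (0.86) and Pdgfrb (0.83) were higher in E1 and S100a4 (-1.01) lower. Luminal sums were 7.63 and 7.35 against 7.32 and 7.68, and basal or myoepithelial sums 11.86 and 11.79 against 11.50 and 11.56. The basal sum is nearly that of Acta2 alone, which read 11.83 and 11.75 in C1 and 11.46 and 11.51 in E1. The adipocyte list read 4.69 and 5.02 in C1 and 10.61 and 10.58 in E1, with 1 of its 4 measured genes, the fatty acid carrier Fabp4, above background in E1 and 3 below it on all arrays. The part of these markers in the differences was not tested.

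Further probe sets mostly gave the same direction. The other Thbs2 probe sets were 1.18 (1450663_at) and 0.99 (1447862_x_at) higher in E1, and the other Thbs1 probe set was 0.68 higher (1450377_at). The remaining 5 fibromodulin probe sets were 0.31 to 0.92 higher in E1 on average, at levels of 2.34 to 4.85 that reach below background. At 1437718_x_at and 1437324_x_at the clones were not separate. There E1 minus C1 was -0.07 and -0.10 between the control arrays, and 0.68 and 1.17 between the Deaf-1 arrays. Both other biglycan probe sets were higher in E1, by 0.22 and 0.17. The other Sparc probe sets differed by -0.16 (1448392_at) and -0.03 (1458204_at), and the clones were not separate at either. Single further probe sets of decorin (1441506_at) and tenascin-C (1456344_at) lay below background on all 4 arrays, and their differences, 0.06 and -0.15, had the opposite sign to those of the leading probe sets. Probe sets ending in _x_at can bind related transcripts, and 1 further probe set annotated with Thbs1 carried a second symbol and was not used.

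**Figure D4:**
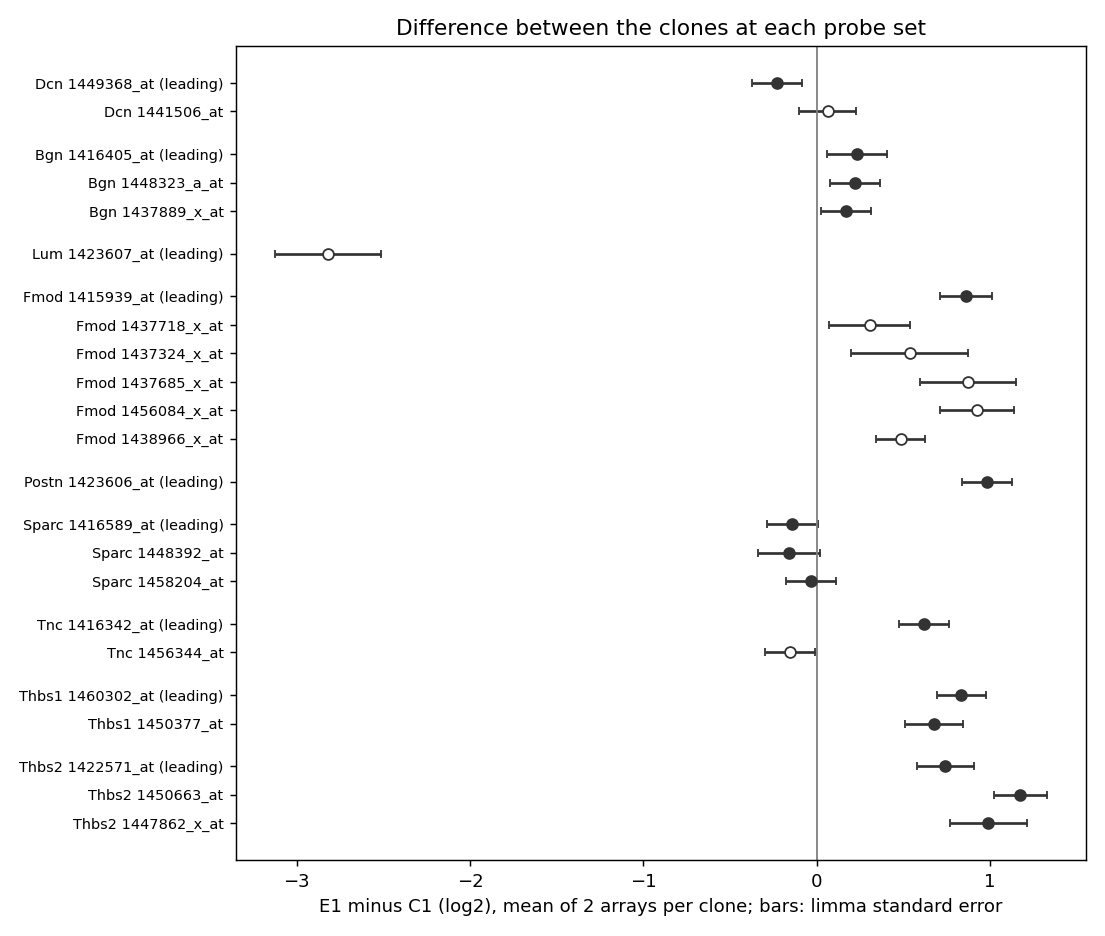
Difference between clones (E1 minus C1, log2, mean of 2 arrays each) at all 23 probe sets, with limma standard errors; filled points were above background on all 4 arrays. Lum stands alone at -2.82, and every probe set of Fmod, Postn, Thbs1 and Thbs2 lies to the right of 0.

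Related matrix genes were examined as lists. Over all 18193 genes, 634 were higher and 631 lower in E1 at an unadjusted limma p under 0.01, and the median difference was 0.016. Of 10 other small leucine-rich proteoglycans measured, 2 rose above this limit in E1 and none fell, with a median of 0.07. Asporin (Aspn), a relative of decorin, read 3.41 and 3.71 in C1, below background, and 6.20 and 5.87 in E1, at least 4.79-fold higher in E1 (adjusted limma p 0.0625). Osteoglycin (Ogn), another small proteoglycan of collagen-rich tissue, read 7.44 and 7.72 in C1 and 8.87 and 8.94 in E1, a difference of 1.33.

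Of 22 other matricellular genes, 5 were higher and 1 lower in E1 at the same limit, with a median of 0.08. The higher ones were Ccn4 (difference 1.71), the testican Spock2 (1.70), Tgfbi (1.38), the Sparc relative Sparcl1 (1.31) and the growth factor-induced Ccn2 (0.83). The lower one was the follistatin-like Fstl1, which also belongs to the Sparc family and read 12.53 and 12.55 in C1 and 11.54 and 11.53 in E1. Both directions thus occurred among relatives of Sparc, while Sparc itself differed by -0.14.

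Of 14 receptors of these proteins, none was higher and 1 lower in E1 at an unadjusted limma p under 0.01. That was Cd47, a thrombospondin receptor, which read 9.80 and 9.81 in C1 and 8.58 and 8.80 in E1, a difference of -1.11 (adjusted limma p 0.114). It was lower in the clone in which Thbs1 and Thbs2 were higher. The other probe sets of Cd47, none of the _s_at, _x_at or _a_at kind, differed by -1.49 to -0.16. Those at -1.49, -1.35 and -1.08 had unadjusted limma p-values of 0.00059, 0.00063 and 0.0015. The one at -0.16 did not pass (unadjusted limma p 0.33). Receptors were counted by their leading probe sets only, so these other probe sets do not enter the counts. With the retrovirus left out of the model 4 receptors passed. With _s_at, _x_at and _a_at probe sets removed, among them the leading one of Cd47, 0 did. Of 17 enzymes that build chondroitin and dermatan sulfate chains, the chain-initiating Csgalnact1 was higher (0.96) and the uronyl sulfotransferase Ust lower (-0.75). With the retrovirus left out of the model, 4 genes of this list passed in place of 2. Of 9 genes for large proteoglycans and hyaluronan, the hyaluronan synthase Has2 was higher (0.77) by its leading probe set. Versican (Vcan) was 0.51 higher at its leading probe set and did not pass (unadjusted limma p 0.021). Other Vcan probe sets were 1.04, 1.03 and 0.85 higher in E1, with unadjusted limma p-values of 0.0017, 0.0037 and 0.0037. The remaining Vcan probe sets, at -0.08 to 0.46, did not pass. With the retrovirus left out of the model, 3 genes of this last list passed by their leading probe sets. None of the genes on these 5 lists reached an adjusted limma p under 0.05 between clones, and none passed an unadjusted p under 0.01 for Deaf-1.

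**Figure D5:**
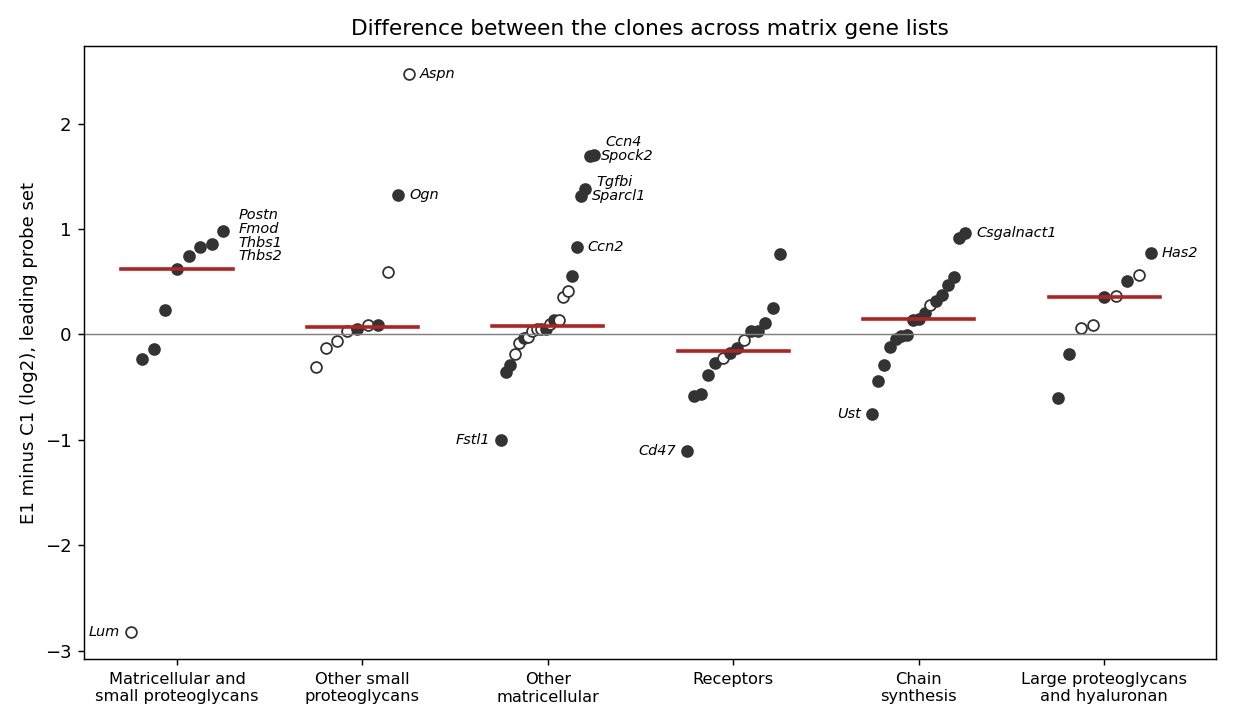
Difference between clones (E1 minus C1, log2) of the leading probe set of each gene, for the 9 genes described and 5 related lists; red lines are medians, open points were not above background on all 4 arrays, and named genes had an unadjusted p under 0.01. The median of the 9 genes is 0.62, and those of the related lists run from -0.15 to 0.35.

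Several of these genes are neighbours in the RefSeq gene order of build GRCm38.p6. Decorin and lumican adjoin each other, followed by Kera and Epyc, and differed between clones by -0.23 and -2.82. Fibromodulin lies beside the small proteoglycan gene Prelp, and Thbs2 beside the Sparc relative Smoc2. Asporin and osteoglycin stand in a row with Ecm2 and Omd. Asporin and osteoglycin were higher in E1, whereas Ecm2 (difference -0.13) and Omd (0.09) were below background on every array.

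The genes whose pattern over the 4 arrays lay closest to that of lumican were sought by the distance between centred values. The nearest were Tshz2 (distance 0.23), Arhgap20 (0.27), the progesterone receptor Pgr (0.42), the homeobox gene Meox2 (0.46) and the procollagen C-proteinase enhancer Pcolce2 (0.49). With 4 arrays this likeness describes a shared difference between the clones. Tshz2 read 6.39 and 6.84 in C1 and 4.00 and 3.63 in E1, and Pgr read 7.19 and 7.50 in C1 and 5.23 and 4.63 in E1.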

How the data were processed

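Values were deposited by the authors on a log2 scale, 1 per probe set and array. The submitters' processing notes name RMA and limma without versions, and no source used here names a genome build for the probe sets. Of 45101 probe sets, 64 control probe sets were left out. One gene symbol was annotated for 34945 probe sets, several for 932 and none for 9160. Of these symbols, 34741 matched RefSeq gene identifiers and 0 differed. No scanner file was used.

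The Deaf-1 and control groups were fitted with limma 3.58.1 (lmFit, eBayes) under R 4.3.3, two-sided and with Benjamini-Hochberg adjustment. Clones served as replicates, and calls were made at an unadjusted p under 0.01. The fit had 2 residual degrees of freedom and 2.56 prior ones. The study also took clones as replicates and used this threshold. Its published list was longer than the 5 probe sets called here and held both directions, so its fit was not reproduced. E1 was compared with C1 with the retrovirus in the model (1 and 3.21), called at an adjusted p under 0.05. Intervals are 95%. Same-numbered arrays share a cell line, so they are paired. Deviations of arrays of 1 clone from their group means correlated at 0.54. The number of arrays limits precision.

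The genes and the 11 lists of 115 further genes (112 measured) were chosen with earlier results of these data known. All probe sets of the named family were reported, with list genes named at an unadjusted p under 0.01, cell type markers that bear on the label, and the 5 genes nearest to lumican. The fits were tested on simulated data. Alternatives were the replicate block, a background filter, renewed quantile or loess normalization, a trended prior, removal of _s_at, _x_at and _a_at probe sets, and leaving out each array. In the clone comparison, leaving out an array also left the retrovirus out of the model.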

Additional observations from a re-analysis of the deposited data

Results flagged for a closer look

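For 4 of the 9 leading probe sets the Deaf-1 array lay on opposite sides of its control in the clones. Lumican changed by 0.42 in C1 and -0.70 in E1, so that the E1 change minus the C1 change was -1.12. The E1 Deaf-1 array read 3.57, below the background of 3.77, so the size of the last 2 values is not well measured. Biglycan changed by -0.21 and 0.19, which differ by 0.40. Thbs2 changed by -0.16 and 0.18, which differ by 0.34, and Sparc by -0.09 and 0.04, which differ by 0.12. The difference was not tested, since each clone has 1 array per retrovirus, and 58.9% of all probe sets had opposite signs too.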

How the results depend on the processing

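No probe set of the 23 was called for Deaf-1 under any alternative run. With the clone as a replicate block, 11 of all probe sets passed an unadjusted limma p under 0.01, against 5 without it; the background filter gave 2 and a trended prior 25, and leaving out 1 array gave 2 to 47. Between clones, the adjusted count among the 23 was 0 with the retrovirus in the model, 8 with no replicate block for it, 1 with the background filter, 3 after quantile and 3 after loess normalization, and 7 with a trended prior. Over all probe sets this count was 49, and became 2306, 412, 1286, 936 and 1696 in the same order. It was 22 without _s_at, _x_at and _a_at probe sets. At an unadjusted p under 0.01, 7 of the 23 became 11 with no replicate block. Leaving out 1 array gave 4 to 6: 4 without either C1 array and 6 without either E1 array. The small mean changes with Deaf-1 turned sign after quantile normalization for Dcn (0.023) and Bgn (0.026), and after loess for Dcn (0.030), Bgn (0.024) and Sparc (0.0073). With 1 array left out, so that the groups hold unequal clones, the Deaf-1 change ran from -0.12 to 0.11 for Dcn, -0.23 to 0.21 for Bgn, -1.83 to 1.55 for Lum, -0.70 to 0.26 for Fmod, -0.41 to 0.58 for Postn, -0.13 to 0.076 for Sparc, -0.50 to 0.14 for Tnc, -0.32 to 0.53 for Thbs1 and -0.45 to 0.46 for Thbs2. The direction of no leading probe set between clones turned under any alternative run. The cause was not tested. Lumican in E1 and most further fibromodulin probe sets are limited by signal near background.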
